A study of Mus musculus with 2 samples.

Results

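Cytosolic ribosomal proteins are the structural proteins of the ribosome outside mitochondria. They are described here through their genes in mouse mesenteric artery, the resistance vessels that feed the intestine. Members were the protein-coding genes whose Ensembl identifier carries a symbol of Rpl or Rps followed by a number in GENCODE vM1, together with Rpsa, Rplp0, Rplp1 and Rplp2. Ribosomal S6 kinases, Rps19bp1, Rpl22l1, Rpl7l1 and pseudogenes were left out by name. This gave 82 members of 55573 listed genes, 33 of the small subunit and 49 of the large subunit. Rpl41 was not analysed here, and Rps30, which is encoded by Fau, was outside the rule and is described beside the members.

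The arteries came from wild type C57BL/6 mice aged 10 weeks. Control arteries were kept in 5 mM K+ and depolarized arteries in 60 mM K+, in both cases for 60 min by the treatment given for each sample. The paper's general protocol takes the 5 mM K+ control from the distal arteries, before the remaining tissue is perfused with 60 mM K+. Where that was done, vessel position, perfusion and time outside the body cannot be told apart from K+. All solutions held tetrodotoxin, to avoid activation of autonomic nerves. A protocol text shared by both samples names only 60 mM K+, and the titles and treatments were followed for the direction of every ratio. In each condition 1 RNA-seq library was sequenced from the pooled vessels of 2 mice. There was therefore no replicate check of any difference between them, no test between the conditions was made, and no p-value is given. Poly-A RNA of the whole vessel wall was sequenced, so fewer cells of a type and less RNA per cell cannot be told apart.

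A ribosome is built from 1 copy of nearly every ribosomal protein, and growing cells make these proteins in matched amounts. Their mRNAs are short, abundant and stable, and are known for a 5' terminal oligopyrimidine (TOP) tract, a run of C and T that begins with a C at the first transcribed base. Through this tract the kinase mTORC1 and the binding protein Larp1 control how strongly the mRNAs are translated. RNA-seq measures the amount of these mRNAs, not their translation.

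The start sites of a few members are shown because the TOP tract is the sequence feature that the family is known for. Windows are from RefSeq (GRCm38.p6), 10 bases before and 20 from the annotated start, 5' to 3' on the gene's own strand, and capitals mark a run of 5 or more C or T that begins with C exactly at the start. The first 5 members carry such a run. They include Rps6, the best known target of the S6 kinases, and 3 of the 5 members with the highest ratios in the comparison of the libraries (Rpl38, Rpl35 and Rplp2).
Rps6, chr4:86857348-86857377, minus strand: gaagtcgggcCTCTTTTTCgtgacgcctcc
Rps27, chr3:90213629-90213658, minus strand: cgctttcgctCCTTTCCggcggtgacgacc
Rpl38, chr11:114668570-114668599, plus strand: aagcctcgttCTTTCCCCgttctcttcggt
Rpl35, chr2:39005112-39005141, minus strand: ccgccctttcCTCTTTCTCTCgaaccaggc
Rplp2, chr7:141447641-141447670, plus strand: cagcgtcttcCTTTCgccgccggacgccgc
Rps19, chr7:24884582-24884611, plus strand: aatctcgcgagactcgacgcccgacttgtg
Rpl18, chr7:45718061-45718090, plus strand: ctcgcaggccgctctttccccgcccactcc
Rpl5, chr5:107900518-107900547, plus strand: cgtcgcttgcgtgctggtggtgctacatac
Rpl4, chr9:64173377-64173406, plus strand: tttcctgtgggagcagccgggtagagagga
Rps19, Rpl18, Rpl5 and Rpl4 had no such run at the annotated base, although in Rpl18 the run of C and T lies 1 base further on. Rps19 has 3 annotated starts, of which 1 is shown, and none of them begins such a run. Rps19 and Rpl18 had the highest ratios of the members with at least 100 reads, and Rpl5 and Rpl4 were among the 5 lowest.

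Of the 82 members, 63 had a RefSeq window. A run that starts with C exactly at the annotated base was found in 13 of the 63 (20.6%), against 3.01% of the 27025 genes with a window and 2.60% of the 17430 other protein-coding genes. With a start allowed anywhere within 10 bases of the annotated base on the gene's strand, the counts were 40 of 63 (63.5%) for members and 34.4% of all genes. The second search finds a run by its letters in any pyrimidine-rich window, and both depend on how precisely the first base was annotated. Among the 58 members with a window and at least 100 reads, the 12 with an exact run had a median log2(fold-change) of 0.47 (range 0.36 to 0.61), and the 46 without had 0.44 (range 0.03 to 0.70). The range of the 46 enclosed that of the 12, as the range of a larger set often does. A link between the run and the ratio was not tested.

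The libraries held 10480918 reads on genes in 5 mM K+ and 11289598 in 60 mM K+, and 19735 and 18995 genes had reads. Summed reads of 8 smooth muscle markers were 417961 in 5 mM K+ and 431476 in 60 mM K+, with Acta2, the smooth muscle actin, at 187183 and 199779. Summed reads of 5 endothelial markers went from 34145 to 43422, with 4 of the 5 higher and Kdr lower, and those of 5 fibroblast markers from 43052 to 36368, with 5 of 5 lower. The sums were small for macrophages (385 and 292 reads), adipocytes (346 and 140), Schwann cells (1231 and 1058), red blood cells (908 and 538) and the pancreas (124 and 379). The 6 lymphocyte markers held 7 and 8 reads, with Cd3g at 0 in both libraries, and the pancreatic markers Prss1 and Amy2a5 were at 0 in both. The part of these shifts in the results below was not tested.

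Ribosomal protein mRNAs took a larger share of the 60 mM K+ library. They held 267474 reads in 5 mM K+, 2.55% of all reads on genes, and 337935 reads in 60 mM K+, 2.99% (95% Clopper-Pearson intervals 2.54 to 2.56% and 2.98 to 3.00%). These and all later intervals cover counting error only, since PCR reads without molecular identifiers are not independent molecules. In the sum of FPKM values (fragments per gene, corrected for library size and for the length of the gene), which weighs short mRNAs by molecule and not by read, the share was 5.36% in 5 mM K+ and 6.08% in 60 mM K+. The reads on the mitochondrial genome moved in the same direction, from 2.69% to 3.16%, and their relation to the ribosomal protein share was not tested.

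Levels between members can be compared per length, in FPKM. For the 72 members with at least 1000 reads, both libraries added, FPKM ran from 91.6 to 1470 (median 478) in 5 mM K+ and from 117 to 1751 (median 558) in 60 mM K+. Rplp1, an acidic protein of the stalk that recruits translation factors, was the most abundant, at 1470 FPKM in 5 mM K+ and 1751 in 60 mM K+. Next came Rpl10, which joins the large subunit late in its assembly, at 919 and 1144 FPKM, and Rps14, a small-subunit protein whose loss underlies a form of human anaemia, at 853 and 1048. Rpl4, which lines the exit tunnel of the nascent chain, stood at 830 and 882 FPKM, and Rplp0, the base of the stalk, at 733 and 826. The 10 highest members were the same 10 in both libraries. FPKM also depends on the gene length that the authors divided by. Rps15a, a small-subunit protein, had 1786 and 2470 reads on an implied length of 1860 bases, the longest of the 72, and the lowest FPKM of them in 5 mM K+ (91.6).

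**Figure D1:**
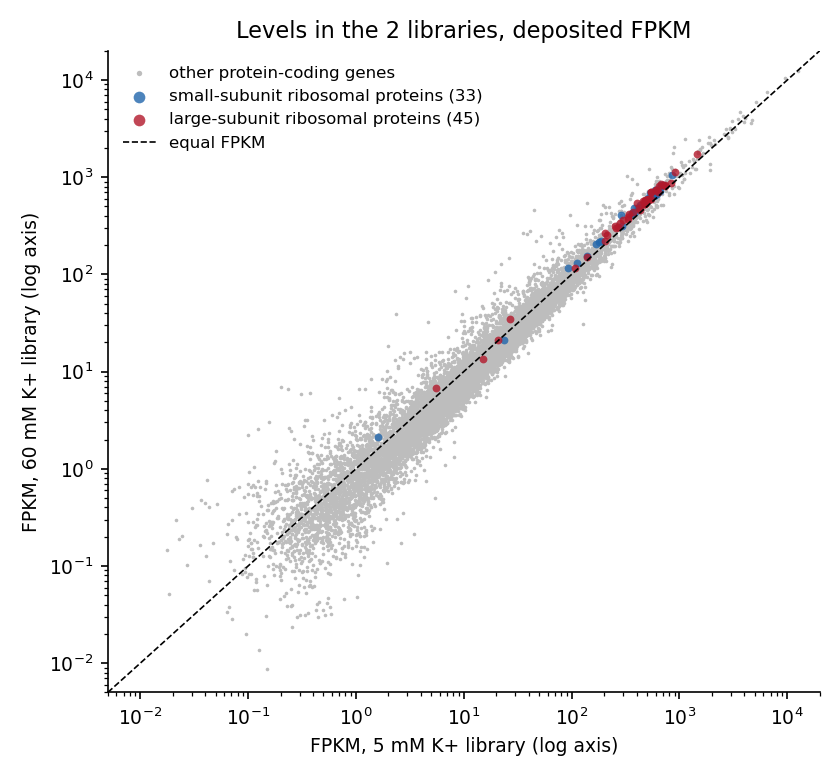
FPKM in the 5 mM K+ library (horizontal, log axis) against FPKM in the 60 mM K+ library (vertical, log axis), as deposited, for protein-coding genes with at least 10 reads and a value above 0 in both. Blue points are the 33 small-subunit and red points the 45 large-subunit members, which mostly lie in a narrow band just above the dashed line of equal FPKM, and grey points are all other protein-coding genes.

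Nearly every ribosomal protein mRNA was somewhat more abundant in the 60 mM K+ library. Of the 82 members, 78 had at least 10 reads, and all 78 had a log2(fold-change) above 0, where log2(fold-change) is the ratio of 60 mM K+ to 5 mM K+ after scaling by the trimmed mean of M-values (TMM). Over all genes with at least 10 reads, 49.6% lay above 0. The members' median was 0.44, with a middle range from 0.37 to 0.50, against -0.0047 for the 14829 genes. The summed reads gave 0.44 (95% interval 0.43 to 0.45), a 1.36-fold higher level. The small subunit (median 0.44, 33 genes) and the large subunit (median 0.44, 45 genes) had the same value to this precision.

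The counting interval lay above 0 for 74 of the 78 members and below 0 for none. Among all genes with at least 10 reads it lay above 0 for 25.0% and below 0 for 20.3%. Members have far more reads than most genes, and intervals shorten with reads, so the share has to be read against deeper genes. Among 647 other protein-coding genes as short as most members and with at least 1000 reads, it lay above 0 for 78.4%. Their median was 2059 reads per gene, against 7746 for the 72 members with at least 1000 reads. Among the 359 such short genes with at least 1873 reads (median 3619), it lay above 0 for 90.5%. No member passed the thresholds of the study (q-value below 0.005 and absolute log2(fold-change) above 1). The random-sampling test behind them was recomputed here on the reads of these libraries. In this recomputation, 2.11% of 21374 genes with reads passed as higher (452 genes) and 1.10% as lower (235 genes). These are not the paper's own calls, whose list at these thresholds is shorter and almost wholly of higher genes. The highest member with at least 10 reads was at 1.63-fold.

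The size of this difference rested on the scaling. When libraries were scaled by total reads, every log2(fold-change) fell by 0.21, which took the median of all genes to -0.21 and that of the members to 0.23. In that scaling 76 of 78 members remained above 0, with Rpl13a at -0.17 and Rps4y2 at -0.15, and 72 had intervals above 0. The matching shares of other genes in that scaling are not given here, so these counts have no background. The median of members was 0.45 above the median of all genes under TMM, by total reads, by the upper quartile and by the median of ratios alike, since each scaling shifts all genes together.

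**Figure D2:**
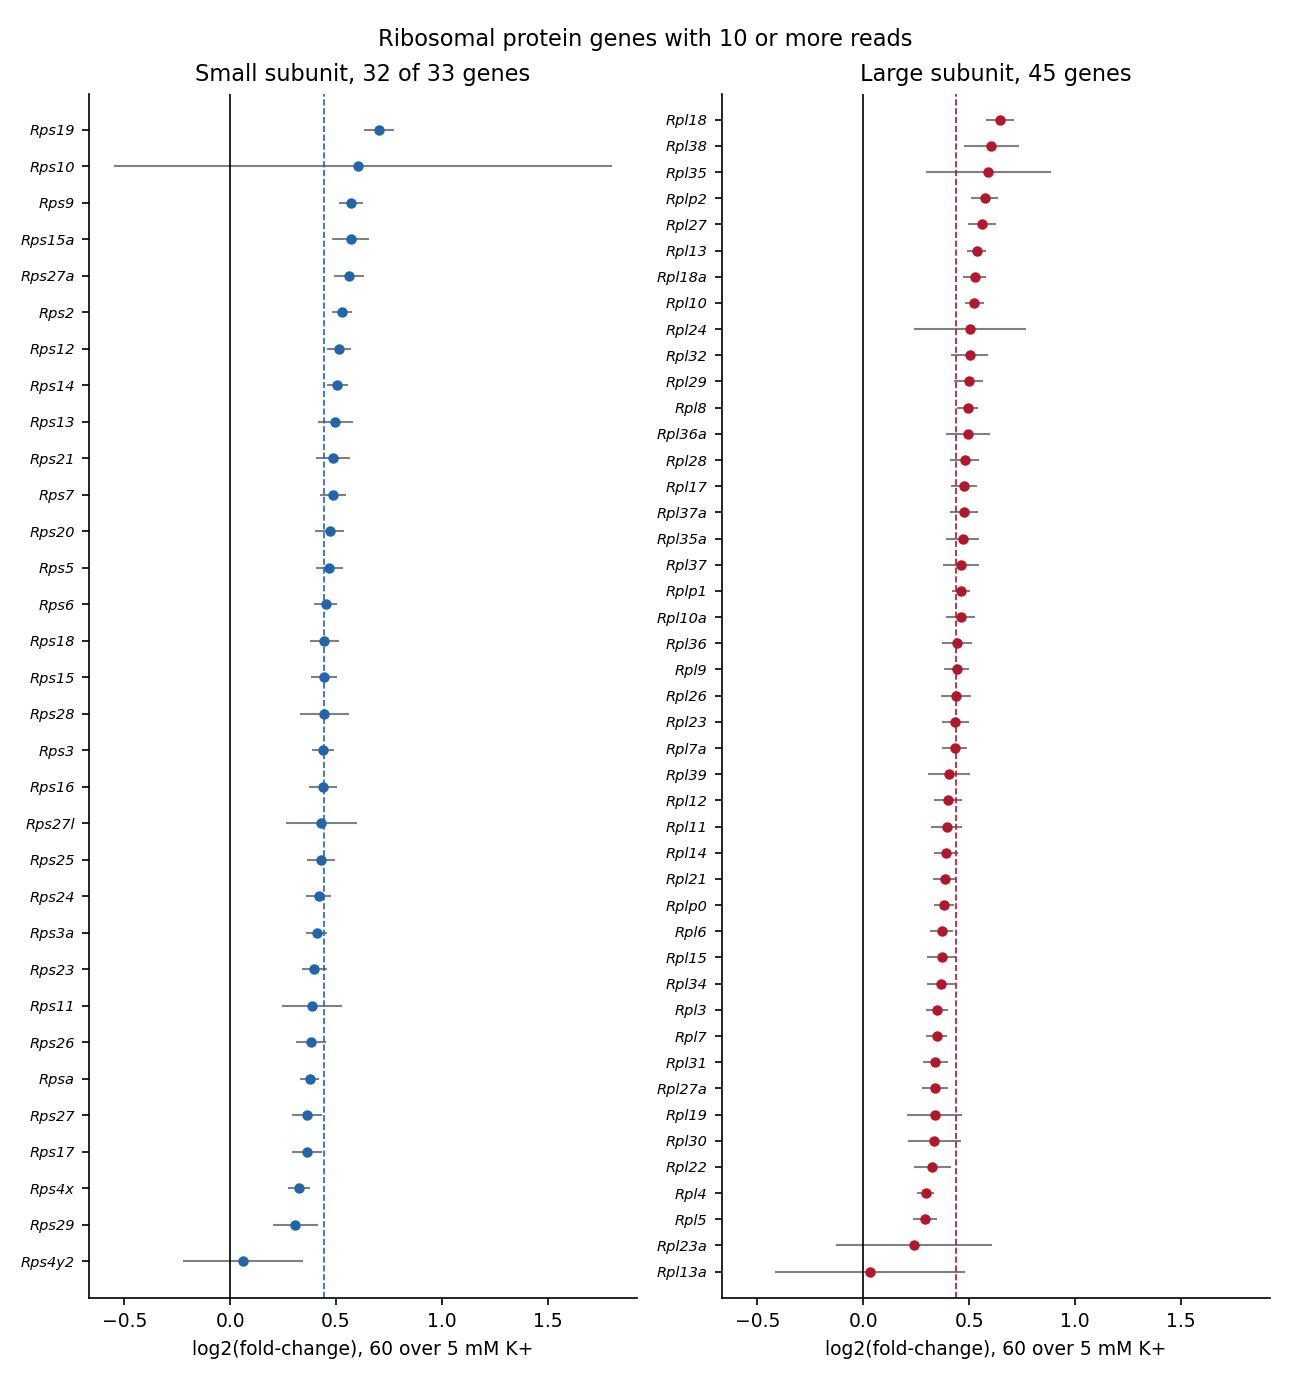
log2(fold-change) of 60 mM K+ over 5 mM K+ after TMM scaling (horizontal) for 32 of the 33 small-subunit members (left, blue) and 45 large-subunit members (right, red) with at least 10 reads, ordered by value. Bars are 95% counting intervals, the solid line is 0 and the dashed lines are the medians (0.44 in both panels). All points lie above 0, and under total-count scaling Rpl13a and Rps4y2 would lie below it.

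Among members with at least 100 reads, Rps19 had the highest ratio. This small-subunit gene, mutated in Diamond-Blackfan anaemia, lies in mm9 at chr7:25669390-25674825 and had 2516 reads in 5 mM K+ and 3818 in 60 mM K+ (290 and 408 FPKM). Its log2(fold-change) was 0.70 (0.63 to 0.78). Rpl18, a large-subunit protein, had 3269 reads in 5 mM K+ and 4769 in 60 mM K+, with a log2(fold-change) of 0.65 (0.58 to 0.71). Rpl38, known for its part in the translation of Hox mRNAs in the embryo, went from 816 to 1157 reads (0.61, 0.47 to 0.74). Rpl35, which sits at the mouth of the exit tunnel, had 166 and 233 reads (0.59, 0.30 to 0.89). Rplp2, the partner of Rplp1 in the stalk, had 3344 and 4641 reads (0.57, 0.51 to 0.64). The intervals of all 5 overlapped each other, those of Rps19 and Rplp2 only at their ends (0.63 to 0.64). Overlap of intervals does not by itself settle whether counting separates 2 members, and differences between members were not tested.

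The lowest members fell into a group with few reads and a group with many. Rpl13a, known for silencing inflammatory mRNAs when it is released from the ribosome, had 88 reads in 5 mM K+ and 84 in 60 mM K+, a log2(fold-change) of 0.03 (-0.41 to 0.48). Rps4y2, which RefSeq lists under the symbol Rps4l as a transcribed pseudogene, had 215 and 209 reads (0.06, -0.22 to 0.34). Rpl23a, the docking site of the signal recognition particle, had 120 and 132 reads (0.24, -0.13 to 0.61). These intervals, and that of Rps10, a small-subunit protein with 12 and 17 reads, covered 0, and all but that of Rps4y2 covered the members' median too. Rpl5 and Rpl4 were measured with far more reads. Rpl5, which with Rpl11 and the 5S ribosomal RNA can hold back the p53 inhibitor Mdm2, had 4677 and 5331 reads (0.29, 0.23 to 0.35). Rpl4 had 8677 and 9922 reads, the most of any member (0.29, 0.25 to 0.34).

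The members did not all share 1 ratio. For the 72 members with at least 1000 reads, the SD of the log2(fold-change) was 0.085, against 0.038 that counting error alone gives at these depths. Their range was 0.29 to 0.70. The interval lay above the members' median for 15 of the 72, among them Rps19, Rpl18, Rplp2, Rps9, Rps27a and Rpl10, and below it for 18, among them Rpl4, Rpl5, Rps4x, Rpl3 and Rpl7. It covered the median for the other 39. No library replicates exist to say how much of the extra spread is between any 2 libraries of one condition.

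The ribosomal stalk was read from 3 genes. Rplp1 had 7686 and 9867 reads, for a log2(fold-change) of 0.46 (0.42 to 0.50), Rplp2 stood higher at 0.57, and Rplp0 went from 6735 to 8175 reads (0.38, 0.33 to 0.43). The interval of Rplp2 began just above the end of that of Rplp1 and was well clear of that of Rplp0. Rpsa, a small-subunit protein also known as the laminin receptor, had 6780 and 8197 reads (0.38, 0.33 to 0.42).

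Members known for roles in signalling or outside the ribosome lay within the range of the rest. Rps6, the substrate of the S6 kinases, had 5014 and 6390 reads, a log2(fold-change) of 0.45 (0.40 to 0.50). Rps27a, made as a fusion with ubiquitin, had 2831 and 3894 reads (0.56, 0.49 to 0.63). Rpl11, the partner of Rpl5, had 2785 and 3413 reads (0.39, 0.32 to 0.47). Rpl22 had 1947 and 2276 reads (0.33, 0.24 to 0.41) and Rpl23, another Mdm2 binder, 3504 and 4413 (0.43, 0.37 to 0.50). Rpl26, which promotes translation of p53, had 2793 and 3529 reads (0.44, 0.37 to 0.51). Rps3, which lies at the mRNA entry and has a role in DNA repair, had 5721 and 7230 reads (0.44, 0.39 to 0.49). Rps14 had 5651 and 7479 reads (0.51, 0.46 to 0.56).

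Some members are paralogs of a core ribosomal protein, several of them known from a single tissue. Rpl10l, a testis gene, had 0 reads in both libraries, which allows up to 0.266 and 0.286 CPM (counts scaled to library size) at a floor of 3 counts. Rpl39l, also best known from testis, had 0 and 2 reads. Rpl3l, the heart and skeletal muscle form of Rpl3, had 2 and 4 reads, and Rpl36al had 4 and 4. No ratio is given for these 4. Their core partners were abundant: Rpl10 had 6711 and 9002 reads (0.53, 0.48 to 0.57), Rpl39 1459 and 1800 (0.40, 0.30 to 0.51), Rpl3, which shapes the peptidyl transferase centre, 5516 and 6543 (0.35, 0.30 to 0.40), and Rpl36a 1353 and 1776 (0.49, 0.39 to 0.60). Rps27l, a p53 target, was expressed well above the other paralogs, with 528 and 663 reads (0.43, 0.26 to 0.60), while Rps27 had 2932 and 3518 (0.36, 0.29 to 0.44). Per length, Rps27l stood at 112 and 131 FPKM and Rps27 at 593 and 660. Rps4x, the X-linked form of Rps4, had 5375 and 6279 reads (0.33, 0.27 to 0.38).

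Low counts were not confined to paralogs. Rps10, Rpl13a, Rpl23a, Rpl35 and Rpl24 are core proteins of which every ribosome holds a copy, yet each had fewer than 1000 reads, with a median of 252 over the 5, against 7917 for the other 71 core members. All 5 overlap another annotated gene in GENCODE vM1, 4 of them a protein-coding gene (Rpl13a with Flt3l, Rpl23a with Tlcd1, Rpl35 with Wdr38, Rpl24 with Pcnp), while 39 of the 71 overlap another gene and 10 a protein-coding one. The sources used here do not give the annotation or the treatment of reads shared between genes, and the kit as described does not mark strand, so how this overlap moved the counts was not tested. The ratios of Rpl35 (0.59) and Rpl24 (0.50, 0.24 to 0.77, from 211 and 279 reads) were near those of the other core members. Ribosomal protein mRNAs also have many processed copies in the genome. For 49 members GENCODE vM1 lists at least 1 entry with the suffix -ps, and 140 such entries held 759 and 990 reads in all, 0.00724% and 0.00877% of the libraries. Copies listed under any other name were not counted, so these shares do not measure the reads on copies as a whole. How reads that match both a member and a copy were counted is not given in the sources used here.

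The ratio of a gene moved with its length in these libraries, and ribosomal protein genes are short. Their median length implied by the deposited counts and FPKM was 718 bases, and 90% of them were no longer than 1119 bases. The 2378 other protein-coding genes up to that length had a median log2(fold-change) of 0.17 under TMM and -0.04 under total-count scaling, and 38.7% of them had an interval above 0 and 8.20% below. The members' median was 0.27 above that of these short genes under every scaling, since a scaling moves both alike. Against the 359 short genes that also had the reads of members (at least 1873), which had a median of 0.34, the difference shrank to 0.10.

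Bins of length gave the same picture in detail. Up to 500 bases, 8 members had a median of 0.44 and 59 other genes 0.33. From 500 to 750 bases it was 0.44 for 33 members and 0.23 for 471 other genes, and from 750 to 1000 bases 0.43 for 24 members and 0.16 for 1188. From 1000 to 1500 bases, the medians were 0.41 for 10 members and 0.09 for 3009 other genes. The median of other genes thus fell from bin to bin while that of the members lay between 0.41 and 0.44 up to 1500 bases, and the gap widened from 0.11 to 0.32. From 1500 to 2000 bases, 2 members had a median of 0.52 and 2617 other genes -0.0026. The only member over 3000 bases, Rpl24, stood at 0.50, against a median of -0.11 for 2326 other genes. All lengths here are those behind the deposited FPKM, and whether they match the length of the mRNAs was not tested. The members in the longer bins, and the gap there, rest on these lengths. Across the 77 members with at least 100 reads, log2(fold-change) had no trend with log10 length (Pearson r = 0.03, Spearman rho = -0.05), a description across genes of the same libraries.

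**Figure D3:**
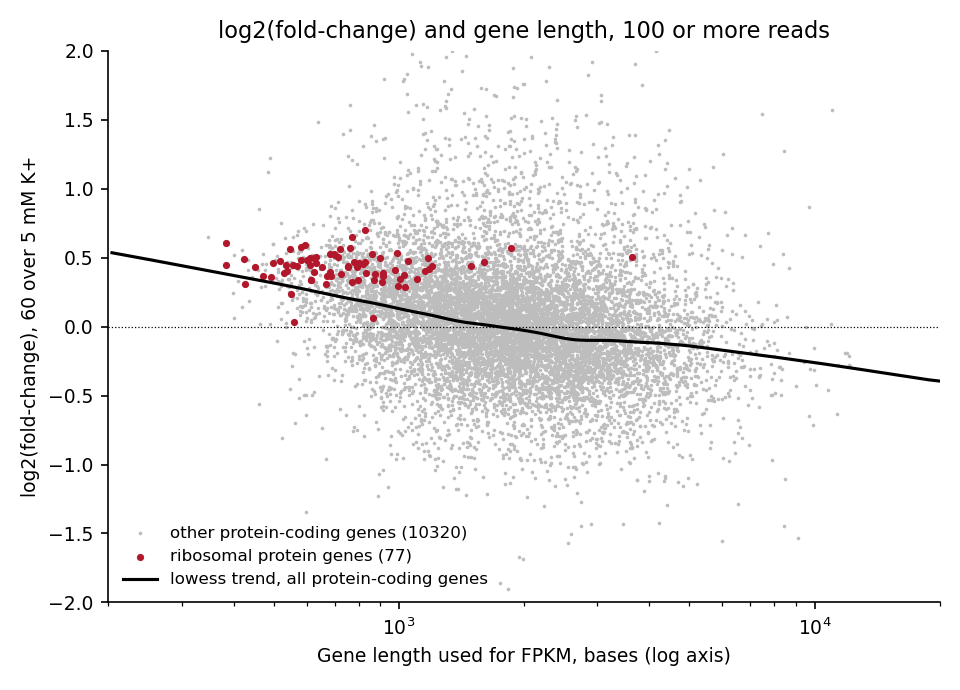
log2(fold-change) after TMM scaling (vertical) against the gene length implied by the deposited values (horizontal, log axis) for protein-coding genes with at least 100 reads. Red points are 77 members, grey points 10320 other genes, and the black line is the lowess trend over protein-coding genes with at least 10 reads; 50 genes lie beyond the axes. The trend falls with length, and most members lie above it at every length they cover.

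When the lowess trend with length was subtracted, the members' median fell to 0.22, their summed value to 0.24, and 67 of 78 kept an interval above 0. Before this step, the interval lay above 0 for 90.5% of the 359 short genes with members' reads. Their share after it, and that of all genes, is not given here, so the 67 have no background. The same step took the median of the other short genes to 0.00 and that of the 359 short genes with members' reads to 0.18. Rps19 stood at 0.52 after this step, Rps15a at 0.58 and Rpl24 at 0.61, and Rpl13a (-0.25), Rps4y2 (-0.11), Rpl23a (-0.05) and Rps29 (-0.05) lay below 0. The values of Rps15a and Rpl24 rest on long implied lengths (1860 and 3631 bases).

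The members had a smaller spread than other short genes, a description of these libraries without a test. With at least 1000 reads, the 647 other short genes had a median of 0.30 and an SD of 0.299, where counting error gives 0.064, and 581 of them (89.8%) lay above 0. Of the 647, 296 (45.7%) fell inside the members' range of 0.29 to 0.70, and 166 (25.7%) lay above the members' median. Values as high as those of members were therefore common among short, well-covered genes, while no member with at least 1000 reads lay below 0.29.

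**Figure D4:**
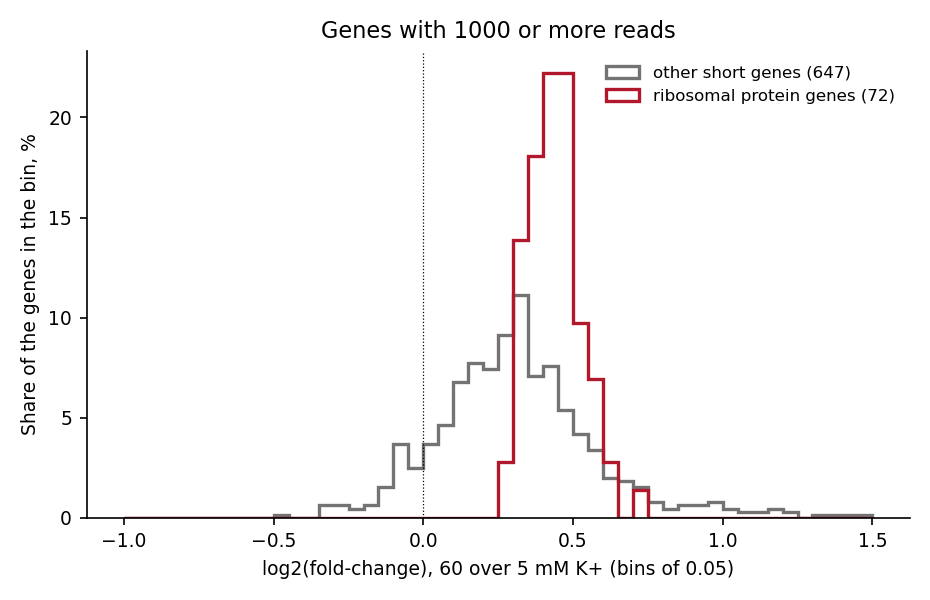
Share of genes (vertical, %) by log2(fold-change) after TMM scaling (horizontal, bins of 0.05) for 72 members (red) and 647 other short protein-coding genes (grey), all with at least 1000 reads. The members form a narrow peak from 0.29 to 0.70 within the upper part of the wider grey distribution; 3 of the other genes lie beyond the plotted range.

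Lists of related genes were set beside the members. Genes with respiratory chain symbols, which are short and encoded in the nucleus, had a median of 0.32 over 83 genes. It was 0.34 over the 57 with at least 1000 reads (SD 0.157). Intervals lay above 0 for 62 and below 0 for 1, Atp5sl (-0.44, -0.70 to -0.17). The list was drawn by symbol patterns such as Nduf, Uqcr and Atp5, and not every gene in it need be a chain subunit. With the length trend removed, the median of the 83 was 0.12. Mitochondrial ribosomal protein genes, whose products build the separate ribosome of the organelle, had a lower median of 0.15 over 74 genes under TMM and -0.06 under total-count scaling, with intervals above 0 for 16 and below 0 for 1. Their reads were fewer, with a median of 403 per gene against 7399 for the cytosolic members. Their median log2(fold-change) was 0.01 with the length trend removed.

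Translation factors and other genes whose mRNAs are known to carry a TOP tract had a median of 0.32 over 22 genes. Intervals lay above 0 for 21 and below 0 for none. These genes were longer than the members, with a median of 1119 bases against 718. With the length trend removed, their median was 0.22, as was that of the members. Fau, which encodes Rps30 fused to a ubiquitin-like protein, was the highest with at least 100 reads, at 3305 and 4804 (0.64, 0.58 to 0.71). Gnb2l1, the symbol of Rack1 in this annotation and a scaffold on the small subunit, had 4211 and 4922 reads (0.33, 0.27 to 0.39). The elongation factors Eef1a1 (40187 and 44057 reads, 0.23, 0.21 to 0.25) and Eef2 (23963 and 32619 reads, 0.55, 0.52 to 0.57) differed from each other by more than counting error, though both are textbook TOP mRNAs. This pair was picked with its values known. Eif2s3x was the lowest, at 1282 and 1184 reads (-0.01, -0.13 to 0.10).

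Genes for ribosome biogenesis, which make and process ribosomal RNA and assemble the subunits, did not lie in 1 direction. Their median was 0.12 over 66 genes under TMM and -0.09 under total-count scaling, with intervals above 0 for 21 and below 0 for 10. With the length trend removed, the median was 0.04. Myc, a transcription factor that drives ribosome production, was the highest, with 359 reads in 5 mM K+ and 1073 in 60 mM K+ (1.68, 1.51 to 1.86). Eif6, which keeps the free large subunit from joining, had 600 and 967 reads (0.79, 0.64 to 0.94), and Polr1d, a subunit of RNA polymerases I and III, 654 and 1048 (0.78, 0.64 to 0.92). The lowest was Wdr12, an assembly factor of the large subunit, with 158 and 77 reads (-0.94, -1.35 to -0.53). Polr1a, the largest subunit of RNA polymerase I, had 302 and 218 reads (-0.37, -0.63 to -0.11). Eif6, Polr1d and Polr1a were chosen after their values were seen.

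Genes of mTORC1 and of TOP mRNA control had a median of -0.14 over 24 genes, with intervals above 0 for 7 and below 0 for 8. They were long, with a median of 2203 bases, and their median log2(fold-change) was -0.04 with the length trend removed. Atf4, a transcription factor of the amino acid response, was the highest, with 2764 and 6074 reads (1.24, 1.17 to 1.30), and Sesn1, an inhibitor of mTORC1, the lowest, with 798 and 504 (-0.56, -0.73 to -0.40). Larp1, which binds the TOP tract, had 918 and 832 reads (-0.04, -0.18 to 0.10) and Mtor, the kinase itself, 859 and 666 (-0.27, -0.41 to -0.12); these were named after their values were seen. Of the genes left out by name, 12 had at least 10 reads, with a median of 0.17 under TMM and -0.04 under total-count scaling and intervals above 0 for 5 and below 0 for 1. Rpl22l1, a paralog of Rpl22, had 169 and 235 reads (0.58, 0.29 to 0.87), and Rps6kb2, one of the S6 kinases, 459 and 344 (-0.31, -0.52 to -0.11).

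**Figure D5:**
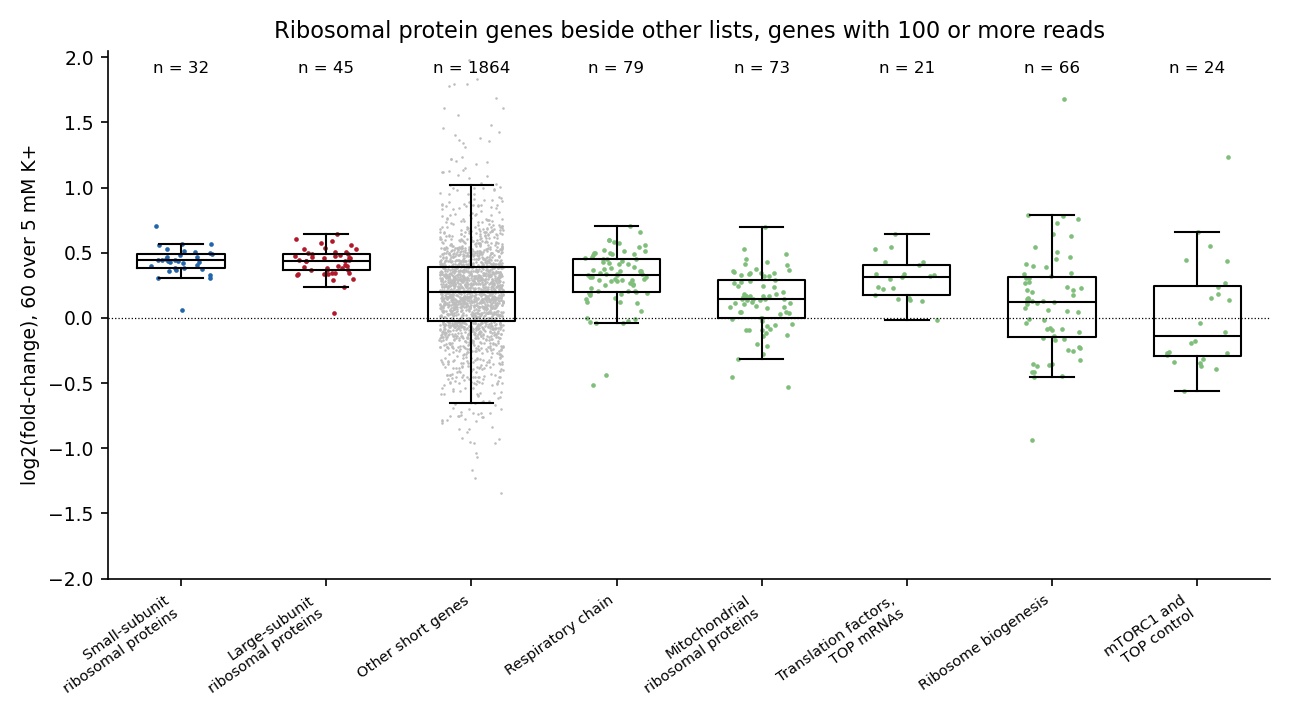
log2(fold-change) after TMM scaling (vertical) of genes with at least 100 reads, for the members by subunit and for the other lists. Boxes span the middle range with the median as a line, whiskers reach the last gene within 1.5 times that range, points are single genes, and 8 genes lie beyond the axis. Both subunits form short boxes around 0.44, and the boxes of other short genes, mitochondrial ribosomal proteins, ribosome biogenesis and mTORC1 genes reach 0 or below.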

How the data were processed

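RNA-seq libraries from mesenteric artery (1 in 5 mM K+, 1 in 60 mM K+) were analysed. Per the study's methods, TopHat2 alignment was to mm9. The authors deposited a count of raw reads for each Ensembl gene, and FPKM values. The submitters' processing notes name TopHat2 2.0.12, HTSeq 0.6.1, edgeR 3.0.8 and the builds mm8 and mm9 without roles, and the annotation is not given in the sources used here. Symbols and mm9 coordinates came from GENCODE vM1, which matched 32601 of 55573 identifiers (99.1% of the reads in both libraries). Gene lengths were computed from counts and FPKM.

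TMM factors were computed with edgeR 4.0.16 (R 4.3.3). log2(fold-change) was the scaled ratio, with 0 set to 0.5 reads, given from 10 reads in both libraries together. Its 95% Clopper-Pearson interval comes from the share of reads in the 60 mM K+ library. edgeR's quasi-likelihood test cannot be run without replicates, and the random-sampling test was recomputed from its formula. Lowess (statsmodels 0.14.6, fraction 0.3) gave the length trend. The scripts were tested on simulated data.

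Members and lists were chosen with earlier results of these data known. The genes named are the 5 highest and 5 lowest members with at least 100 reads, the 5 with the highest mean FPKM, paralogs with their core genes, stalk proteins, Rpsa, members with known further roles, members under 10 reads, and the highest and lowest of other lists. Members named outside this rule, as examples of a count or a length, were chosen after their values were seen. The highest and lowest cell type markers are given only as sums. Values of 1 member and 1 related gene are not reported here by name. Alternatives were other scalings, read minimums, FPKM with pseudocounts of 0.1 and 1, removal of the length trend, other sets of short genes, and other tests.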

Additional observations from a re-analysis of the deposited data

How the results depend on the processing

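No paired analysis was possible because there was 1 library of each kind and so no pair of replicates. The members' median log2(fold-change) of 0.44 became 0.23 with total-count scaling, 0.23 with FPKM and a pseudocount of 0.1 or 1 (both on the log2(value + pseudocount) scale), and 0.22 with the length trend removed. The summed value of 0.44 became 0.23 with total-count, 0.40 with upper-quartile and 0.43 with median-of-ratios scaling, and 0.24 with the length trend removed. The difference from other short genes, 0.27, became 0.19 with genes no longer than the median member, 0.41 with genes no longer than the longest member and 0.10 with genes of the members' reads. The share of reads in 5 mM and 60 mM K+ became 2.60% and 3.05% of protein-coding reads and 5.36% and 6.08% of the FPKM sum. No member passed the study's thresholds in any alternative, while the count over all genes, 687, became 407, 73 and 0 with edgeR's exact test at an assumed coefficient of variation of 0.1, 0.2 and 0.4, and 1132 with a q-value of 0.05. The share of calls that were higher was 65.8% with TMM and 36.2% with total-count scaling. Counts of members with an interval above 0 stayed between 67 and 74 in every alternative run, and none had an interval below 0. The matching shares of other genes in these alternatives are not given here. For named members, 97 values in the alternatives moved by more than the mean distance to the ends of their counting interval and 94 did not, and none of these with an interval clear of 0 changed sign. Rps29, which is not among them, changed from 0.31 (0.20 to 0.42) to -0.05 with the length trend removed. With 1 library per condition, the variation between animals is unknown.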
